A study of Mus musculus with 16 samples.

Results

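In mouse bone, N6-methyladenosine (m6A), a methyl mark within RNA chains, was mapped, and 925 of the 13083 deposited m6A peaks (7.07%, exact 95% binomial interval 6.64 to 7.52) were laid out by the authors across at least 4 separate blocks. A block is an uninterrupted stretch of a peak, and the gaps between blocks are sequence that the peak skips, as the table draws introns. Members were chosen by a block count of at least 4, and 9 further peaks of 4 or more blocks were left out because their genes have Zfp zinc finger, Gm or Rik names. The 925 peaks lay in 781 of the 6847 genes with any peak.

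The bone came from wild type animals after ovariectomy, which removes the ovaries and models bone loss after loss of estrogen, or after a sham operation. There were 4 immunoprecipitated (IP) and 4 input libraries in each arm, 16 in all, with m6A-bearing fragments recovered by antibody in the IP libraries. The IP libraries titled NC are labelled as ovariectomy in the treatment field, so the arm was taken from the title. The labels give neither animal age nor pooling, nor whether libraries came from separate animals, so the deposited p-values may measure technical spread. Neither deposited table gives a value for a single library or says which arm is the numerator, so differences are written as positive or negative as deposited.

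m6A is written onto nuclear RNA by a methyltransferase complex built around METTL3 and METTL14, with WTAP as an adaptor. It is known to gather in long internal exons and around stop codons, and the protein complexes left on spliced exon junctions are known to keep the writer away from RNA close to a junction. A fragment of spliced RNA can still cross 1 or more junctions, so a peak drawn from such fragments is split into blocks when it is placed on the genome.

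Most members were built from short blocks. Of the 925 peaks, 489 had exactly 4 blocks, 208 had 5, 106 had 6, 64 had 7 and 58 had 8 or more, up to 23. The 2763 inner blocks, which are bounded by a gap on both sides, had a median length of 100 bases (quartiles 71 and 138). Inner blocks over 200 bases made up 5.39% of them, and 11 (0.398%) were over 400 bases. In 753 members (81.4%) no block at all was over 200 bases, and in 25 (2.70%) a block exceeded 400 bases. End blocks were shorter than inner ones, with medians of 46 bases at the 5′ end and 47 at the 3′ end, and 198 members had an end block of 10 bases or fewer. Counting blocks over 10 bases alone left 820 members with at least 4.

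The gaps show how far along the genome such a peak reached. Between blocks lay 3688 gaps with a median of 1271 bases, the smallest 68 and the largest 98119. The summed block length of a member was 400 bases at the median (quartiles 299 and 548), while its genomic span from first to last block was 6786 bases (quartiles 3849 and 12362). A span over 10000 bases was found in 298 members and over 100000 bases in 8. The peak of Rsrc1, a gene for a serine and arginine rich splicing protein, had the widest span, 355283 bases on chromosome 3 (66994694 to 67349976), for 545 bases in 7 blocks.

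The peak with the most blocks lay in Trdn, which encodes triadin of the calcium release complex in muscle. It covered chromosome 10 from 33258107 to 33464566 on the plus strand in 23 blocks that summed to 793 bases. From the 5′ end its first 8 blocks were 34, 54, 30, 30, 18, 33, 27 and 27 bases long, and its longest was 54. All 21 of its inner blocks had a length divisible by 3, against 45.7% of inner blocks over all members. Next in number of blocks came Top1, the DNA topoisomerase that relaxes supercoils, and Eif5b, a factor that joins the ribosomal subunits, with 12 blocks each. Top1 was made of blocks of 16 to 124 bases, while Eif5b held a block of 670 bases and had the largest summed length of any member, 2100 bases. Rbm25, a splicing regulator, Cntrl, a centrosome protein, and Golga3, a Golgi coiled-coil protein, followed with 11 blocks each. Ik and Col6a2 also had 11 and come after these by span; Ik was named after its values were seen.

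**Figure D1:**
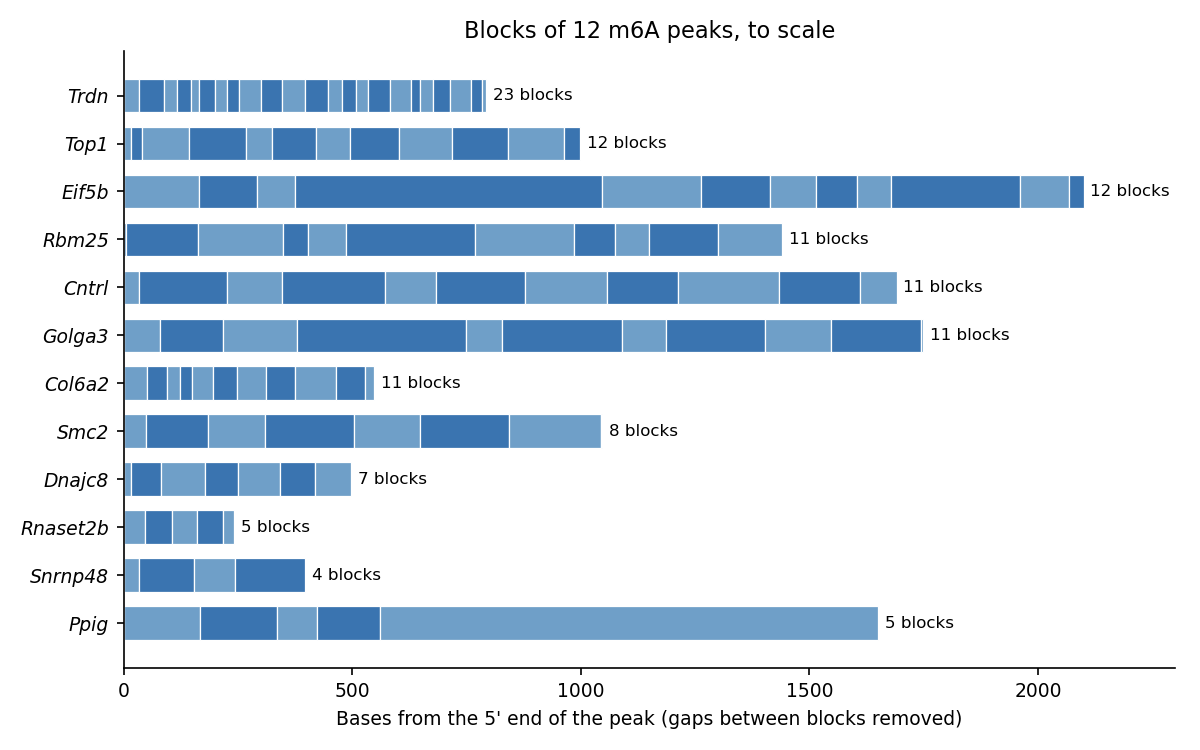
Blocks of 12 peaks drawn to scale in bases from the 5′ end of the peak, with the gaps between blocks removed; shades only separate neighbouring blocks. Trdn has 23 blocks of at most 54 bases, whereas Ppig has 5 blocks of which the last is 1090 bases; the genes beyond those of the naming rule were picked after their values were seen.

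Collagen peaks showed the repeat of their genes in the block lengths. Collagen helices are built of residue triplets that each begin with glycine, and their exons are known to hold whole numbers of these triplets, which take 9 bases each. In the 14 members of a list of collagen genes, 41 of 45 inner blocks (91.1%) had a length divisible by 9, against 16.3% over all members, and 14 of them were exactly 54 bases. The Col6a2 peak, of a type VI collagen chain (chromosome 10, 76608150 to 76611998, minus strand), ran from its 5′ end through blocks of 51, 45, 27, 27, 45, 54, 63, 63, 90, 63 and 20 bases. The 9 inner ones were all multiples of 9. It was chosen after its values were seen.

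Members were mid-gene rather than terminal, as were peaks of 2 and 3 blocks. Of their gene symbols, 921 were in the GRCm38.p6 RefSeq annotation on the same chromosome, and all 921 peaks lay inside the gene of that name. The midpoint of a member fell at 63.7% of the gene's length from its 5′ end at the median (quartiles 42.7 and 80.2), counting introns, and 7.71% fell in the last 10%. Peaks of 1 block had a median of 87.8%, and 45.9% of them fell in the last 10%. Peaks of 2 and 3 blocks had medians of 66.0% and 62.3%, with 17.5% and 11.7% in the last 10%. A member spanned 13.6% of its gene at the median (upper quartile 27.8%), and 98 members spanned over 50%. Peaks of 1 block spanned 0.42% at the median. A wide peak that lies inside its gene cannot have its midpoint near the gene's end. The share of members in the last 10% is therefore limited in part by their span, and that part was not tested. Protein-coding genes held 920 members and long noncoding RNA genes 1.

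Enrichment of IP over input, a linear ratio in the authors' deposited table, was 2.15 at the median of members (quartiles 1.84 and 2.54). Peaks of 1, 2 and 3 blocks had medians of 1.83, 1.70 and 1.83, and all peaks 1.82. Members with an enrichment of at least 2 made up 61.5%, against 35.2% of peaks of fewer blocks. Just inside the limit, peaks of exactly 4 blocks had a median of 2.01 (quartiles 1.74 and 2.35), and just outside it those of 3 blocks had 1.83 (quartiles 1.60 and 2.15). Medians went on to 2.19 for 5 blocks, 2.33 for 6, 2.27 for 7 and 2.64 for 8 or more. The classes overlapped widely, and no test was made between them, because peaks of a gene share libraries and RNA and are not replicates.

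**Figure D2:**
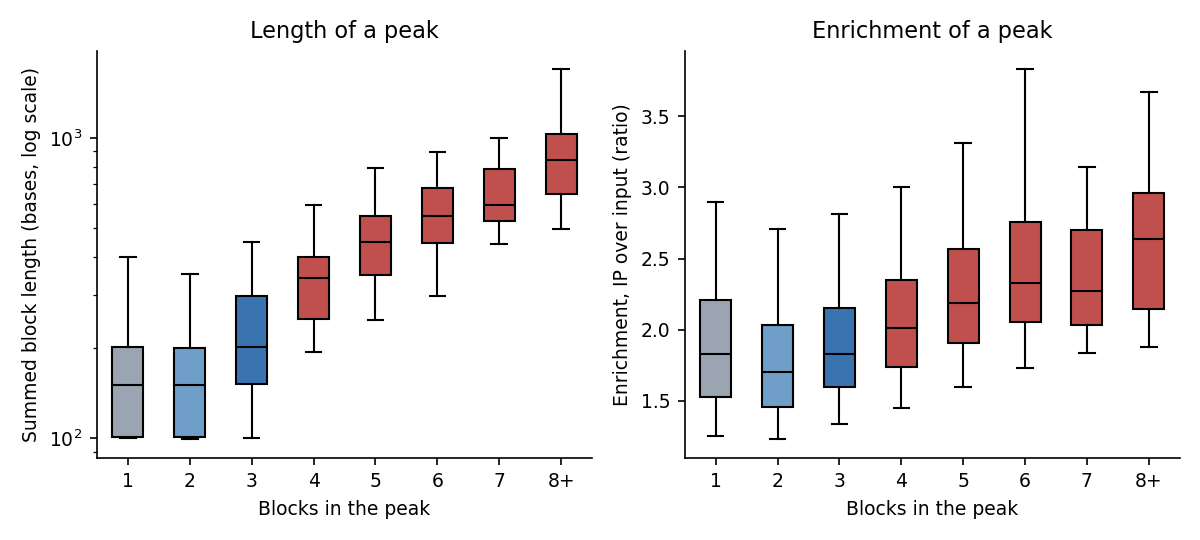
Summed block length (left, bases, log scale) and enrichment of IP over input (right, ratio) by number of blocks; boxes give quartiles with the median as a line, whiskers the 5th to 95th percentile, and red marks peaks of 4 or more blocks. Median length is larger at each step from 3 blocks on; median enrichment is 1.83 at 3 blocks, 2.33 at 6, 2.27 at 7 and 2.64 at 8 or more.

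The higher enrichment was not seen at like length. Members were longer, at 400 bases against 150 for peaks of 1 block, and enrichment was higher in longer peaks of every class. Among peaks of 351 to 500 bases, the median enrichment was 2.15 in 272 members and 2.43 in 274 peaks of 1 block. Over 500 bases the medians were 2.50 in 271 members and 2.64 in 183 peaks of 1 block. At 251 to 350 bases they were 2.03 and 2.21, and at 151 to 250 bases 1.79 and 1.94. Only at 150 bases or fewer, where there were 18 members, was the member median the higher one, 1.71 against 1.66. Peaks of 3 blocks had medians close to those of members, 2.19 at 351 to 500 bases and 2.41 over 500 bases.

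**Figure D3:**
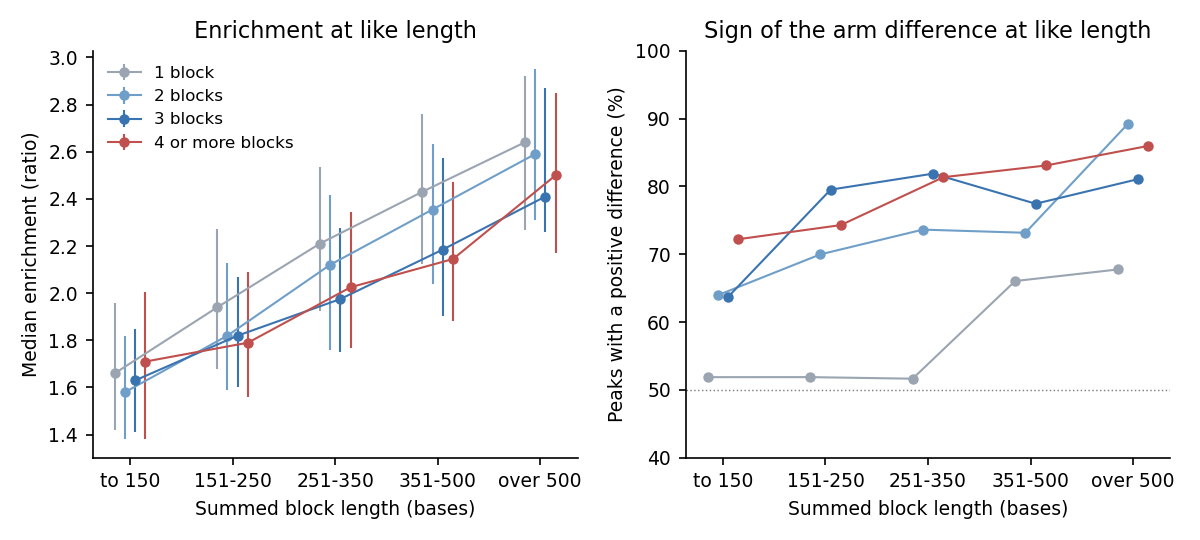
Median enrichment with quartiles (left, ratio) and the percentage of peaks with a positive arm difference (right) in 5 classes of summed block length in bases, by number of blocks. From 151 bases on, red members lie below grey peaks of 1 block in enrichment (2.15 against 2.43 at 351 to 500 bases) and above them in the share of positive differences (83.1% against 66.1%).

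Within a gene, members were usually the more enriched peaks. Of 546 genes with a member and a peak of fewer blocks, the mean enrichment of members was higher in 396, lower in 147 and equal in 3, with a median difference of 0.33 in the ratio. Members were also the longer peaks in 507 of these genes. In the 131 genes that held a fewer-block peak of 299 to 548 bases, the middle range of member length, the members were higher in 77 and lower in 54 (median difference 0.08). The members of those genes still had a median length of 496 bases against 349.

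The highest enrichments were in Rnaset2b, Snrnp48, Ccdc34, U2surp, Ppig and Trdn. Rnaset2b, which encodes a secreted ribonuclease, held the highest value of any member, 8.07 in the authors' deposited table, in blocks of 46, 61, 53, 58 and 24 bases (chromosome 17, 6979053 to 6988745). It has a near-identical copy, Rnaset2a, so reads may be split between them and the value is uncertain. Snrnp48, a protein of the minor spliceosome, had 5.66 in the authors' deposited table, over blocks of 33, 122, 89 and 154 bases. Ccdc34, a coiled-coil protein, reached 4.84 and U2surp, a factor tied to the U2 spliceosome particle, 4.60 by the authors' deposited table. Ppig, a peptidyl-prolyl isomerase of nuclear speckles, had 4.38 in the authors' deposited table and carried an end block of 1090 bases. The second Trdn peak, of 6 blocks, had 4.29 in the authors' deposited table, and the one of 23 blocks had 3.89.

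At the low end stood collagen peaks and a noncoding RNA. Gas5, a host gene of small nucleolar RNAs and the member with the shortest length, 95 bases, had an enrichment of 1.18 in the authors' deposited table. One Col6a3 peak and the Rnf220 peak had 1.19 in the authors' deposited table; these low values were chosen after they were seen. The members of the collagen list ranged from 1.19 to 2.57 with a median of 1.59, below the median of 2.15 over all members. Of 38 peaks in the listed collagen genes, 14 were members (36.8%), in 11 of the 20 listed genes with a peak. Over all genes with a Col symbol, Col22a1 included, 16 of 48 peaks were members (33.3%), in 12 genes. The highest was a Col11a1 peak of 5 blocks with 2.57 in the authors' deposited table, and the Col9a2 peak of 8 blocks had 1.89.

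A few genes carried several members. In 672 genes there was 1 member, in 86 there were 2, in 16 there were 3 and in 7 there were 4 or more. In 215 genes the member was the sole peak. Tpr, a coiled-coil protein of the nuclear pore basket, held 6 members of 4 to 10 blocks among 9 peaks, with deposited enrichments of 1.81 to 2.85. Ttn, the giant spring protein of the sarcomere, also held 6, among 35 peaks (2.17 to 2.80 in the authors' deposited table). Neb, which sets thin filament length in muscle, held 5 of 13. Cep290, a protein of the ciliary transition zone, Cntrl, the early endosome tether Eea1 and Ktn1, a kinesin-binding protein of the endoplasmic reticulum, held 4 each; Eea1 and Ktn1 were named after their values were seen. In Ktn1 these were 4 of 5 peaks, of 6 to 10 blocks and with enrichments of 2.21 to 2.64 in the authors' deposited table.

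The share of peaks that were members is given for each gene list beside 7.07% of all peaks, as a description with no test. In the sarcomere list 18 of 92 peaks (19.6%) were members, in 7 of 16 genes with a peak, and 11 of these 18 were in Ttn and Neb. Among myosins and kinesins outside muscle, 11 of 56 peaks (19.6%) were members, led by 2 of the 5 peaks of Kif20b, a mitotic kinesin, with 3.70 and 3.09 by the authors' deposited table. Spectrin and membrane skeleton genes had 6 of 49 (12.2%), among them Epb41, the red cell protein 4.1, with 2.30 by the authors' deposited table. Translation factors had 4 of 24 (16.7%), including Eif5b with 4.03 and the scaffold subunit Eif3a with 2.71 by the authors' deposited table. Replication and repair genes had 5 of 46 (10.9%), and the condensin ATPases Smc2 and Smc4 among them reached 3.95 and 3.79 by the authors' deposited table. Chromatin genes had 6 of 87 (6.90%), close to the share over all peaks, with the remodelling subunit Smarcc1 reaching 3.0 and 2.80 by the authors' deposited table. Splicing and RNA binding genes had 3 of 46 (6.52%), also close to it, with Srsf11 reaching 2.26 and Srrm2 2.04 by the authors' deposited table.

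Proteasome and chaperonin genes had 1 member of 20 peaks, in Psma3 (2.60 in the authors' deposited table), and ribosomal proteins 1 of 10, in Rpl5 (1.83 in the authors' deposited table). The bone cell list had 19 peaks in 8 genes, the B cell list 21 in 8, the neutrophil list 4 in 4 and the energy metabolism list 1, and none of these was a member; the lists are too small to set against 7.07%. The m6A machinery itself held 4 members of 35 peaks, in the writer complex genes Zc3h13, Wtap and Mettl14 out of 11 genes with a peak. Zc3h13 had 2.54 and 2.25, Mettl14 1.78 and Wtap 1.55 in the authors' deposited table. Wtap and Mettl14 were named after their values were seen. The Wtap peak ran over blocks of 17, 38, 56, 59, 128 and 101 bases.

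Some families could be followed by their symbols, a grouping made after the values were seen. All 6 genes named Smc with a number, the ring ATPases of cohesin, condensin and the Smc5/6 complex, held a member, and 11 of their 23 peaks (47.8%) were members with enrichments of 1.75 to 3.95. The kinases Rock1 and Rock2 had 6 of 9 peaks, centrosomal Cep genes 22 of 103 (21.4%), Ccdc coiled-coil genes 23 of 128 (18.0%) and Hnrnp genes 10 of 38 (26.3%). Solute carriers (Slc) had 3 of 127 (2.36%) and deubiquitinases (Usp) 5 of 80 (6.25%), beside 7.07% over all peaks.

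The m6A difference between the arms was mostly positive in members. Its median was 0.12 on the log2 scale (quartiles 0.036 and 0.18), and 758 of 925 (81.9%, exact 95% binomial interval 79.3 to 84.4) were positive. Over all peaks the median was 0.052 and 60.6% were positive, and peaks of 1, 2 and 3 blocks had 52.8%, 67.4% and 76.1% positive, with medians of 0.015, 0.077 and 0.098. Just inside the limit, at exactly 4 blocks, 79.8% were positive with a median of 0.11. The intervals cover counting error only.

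The share of peaks with a deposited difference p under 0.05 was also higher. It was 114 of 925 members (12.3%, exact 95% binomial interval 10.3 to 14.6), against 4.92% of all 13083 peaks and 3.62% of peaks of 1 block. Positive calls were 105 of 925 members (101 genes), beside 471 of all 13083 peaks (3.6%). Negative calls were 9 of 925 members, beside 173 of all 13083 peaks (1.32%), a share close to that of members. At a false discovery rate (FDR) under 0.05 there was no member, beside 0.0229% of all peaks. By number of blocks the called share was 8.79% at 4, 8.17% at 5, 21.7% at 6, 20.3% at 7 and 31.0% at 8 or more. These differences were small in size. Positive calls had a median of 0.23 (0.017 to 0.75) and negative ones -0.24 (-0.47 to -0.019), whereas positive calls among peaks of 1 block had a median of 0.41.

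**Figure D4:**
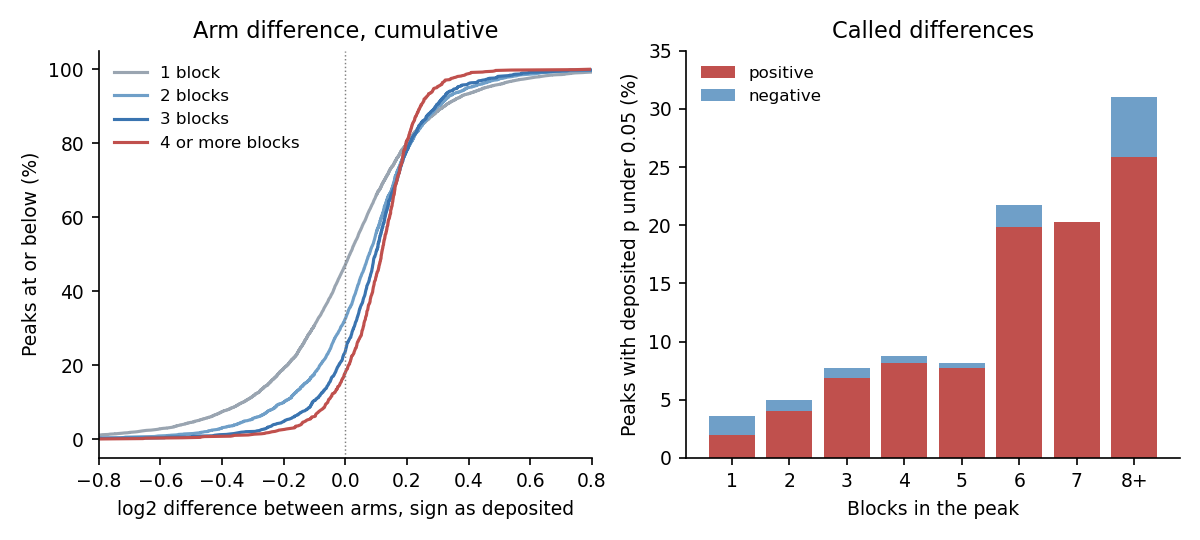
Left, cumulative percentage of peaks by log2 difference between the arms, sign as deposited, for 4 classes of block number; right, percentage of peaks with a deposited difference p under 0.05 by number of blocks, split by sign. The curve of peaks of 4 or more blocks crosses 0 lowest (81.9% positive), and called shares are 3.62% at 1 block and 31.0% at 8 or more.

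Length, RNA level and position in the gene moved with the number of blocks, and members had a larger share of positive differences than peaks of 1 block within classes of each. Among peaks of 351 to 500 bases, 83.1% of members and 66.1% of peaks of 1 block were positive, and over 500 bases 86.0% and 67.8%. Peaks of 2 and 3 blocks also had more positive differences than those of 1 block, with 73.2% and 77.5% at 351 to 500 bases and 89.2% and 81.1% over 500 bases. In the same 2 length classes 9.93% and 22.1% of members were called, against 3.28% and 13.1% of peaks of 1 block. Called shares of peaks of 3 blocks were 6.86% and 5.41% there. In the shorter classes, peaks of 3 blocks had a larger called share than members. It was 9.45% against 7.27% at 251 to 350 bases and 7.72% against 6.94% at 151 to 250 bases. At 150 bases or fewer it was 6.94% against 5.56%, the latter from 18 members. In genes with an RNA mean count above 6456, 87.1% of members and 55.9% of peaks of 1 block were positive, with 16.5% and 5.60% called. In genes with a count of at most 1240 these shares were 62.7% and 52.2%, with 10.4% and 2.42% called, from 67 members. Peaks of 3 blocks had 81.0% positive and 10.8% called above 6456, and 59.9% and 5.21% at counts up to 1240. Between 2843 and 6456, 80.5% of members, 79.2% of peaks of 3 blocks and 51.5% of peaks of 1 block were positive. There 6.49% of members were called, against 7.01% of peaks of 3 blocks and 3.87% of peaks of 1 block. Between 20% and 80% of the gene's length, 81.0% of 631 members and 53.4% of 2270 peaks of 1 block were positive. Peaks of 3 blocks had 77.6% of 836 positive there. Within 328 genes that held a member and a peak of 1 block, the member's mean difference was the more positive in 220. It was the less positive in 107, with a median gap of 0.076. Against fewer-block peaks of 299 to 548 bases, in 131 genes, it was the more positive in 73 and the less positive in 58, with a median gap of 0.018. These classes were not combined, and their part in the difference was not tested.

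The strand of the gene moved with these values as well. Of members, 635 (68.6%, exact 95% binomial interval 65.5 to 71.6) were on the plus strand, as were 59.9% of peaks of 1 block. Members on the plus strand had a median enrichment of 2.22 and 86.0% positive differences, and those on the minus strand 1.99 and 73.1%. The median difference was 0.13 on the plus and 0.073 on the minus strand, and 13.7% and 9.31% were called. The gap between strands was not particular to members. Peaks of 1 block had 56.1% positive on the plus and 47.9% on the minus strand. Peaks of 2 blocks had 72.6% and 60.4%, and those of 3 blocks 79.3% and 70.4%. Median enrichment was 1.85 and 1.78 at 1 block, 1.72 and 1.67 at 2, and 1.86 and 1.79 at 3. The part of strand in the difference was not tested.

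The positive differences with the smallest p were in Dnajc8, Ddx10, Mdn1, Sltm, Trdn and Ssrp1. Dnajc8, a spliceosome-associated co-chaperone, led with 0.24 (log10 p = -4.68, log10 FDR = -1.20) in the authors' deposited table, in 7 blocks of 16 to 95 bases (chromosome 4, 132541823 to 132553096). Ddx10, an RNA helicase of ribosome assembly, had 0.30 (log10 p = -4.19) and Mdn1, the giant ATPase of large subunit maturation, 0.28 (log10 p = -3.48) in the authors' deposited table. Sltm, an RNA-binding chromatin protein, had 0.27 (log10 p = -3.38) and Ssrp1, a subunit of the histone chaperone FACT, 0.12 (log10 p = -3.31) in the authors' deposited table. Trdn had 3 peaks, and both that were members were called, with 0.38 (log10 p = -3.33) for the one of 23 blocks and 0.32 (log10 p = -3.16) for the one of 6 in the authors' deposited table. RNA of Dnajc8, Ddx10, Mdn1, Sltm and Ssrp1 missed the deposited RNA threshold, with log2 fold changes from -0.23 to 0.14 in the authors' deposited table.

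Called negative differences were found in 9 of 925 members, a share close to that over all peaks (173 of 13083, 1.32%). Eif3j1 and Eif3j2, near-identical copies of a translation initiation subunit, had -0.47 and -0.46 (log10 p = -2.91 and -2.98) in the authors' deposited table. Their peaks shared 688 bases, 99.6% of the Eif3j1 peak, so they count in effect as 1 region. The region lies at the Eif3j1 gene, of which the Eif3j1 peak spanned 93.1%. The symbol Eif3j2 was not found on that chromosome in the RefSeq annotation used. The RNA mean count was 10.3 for Eif3j1 and 2191 for Eif3j2 in the authors' deposited table, and how reads were shared between the copies is not known here. Cep131, a centriolar satellite protein, had -0.36 (log10 p = -2.72) and Ccdc122, a coiled-coil protein, -0.37 (log10 p = -2.13) in the authors' deposited table. Supt5, a transcription elongation factor, and Myh2, a fast muscle myosin, had -0.026 and -0.019 (log10 p = -2.45 and -1.92) in the authors' deposited table, sizes well below the median absolute difference of 0.13 over members.

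**Figure D5:**
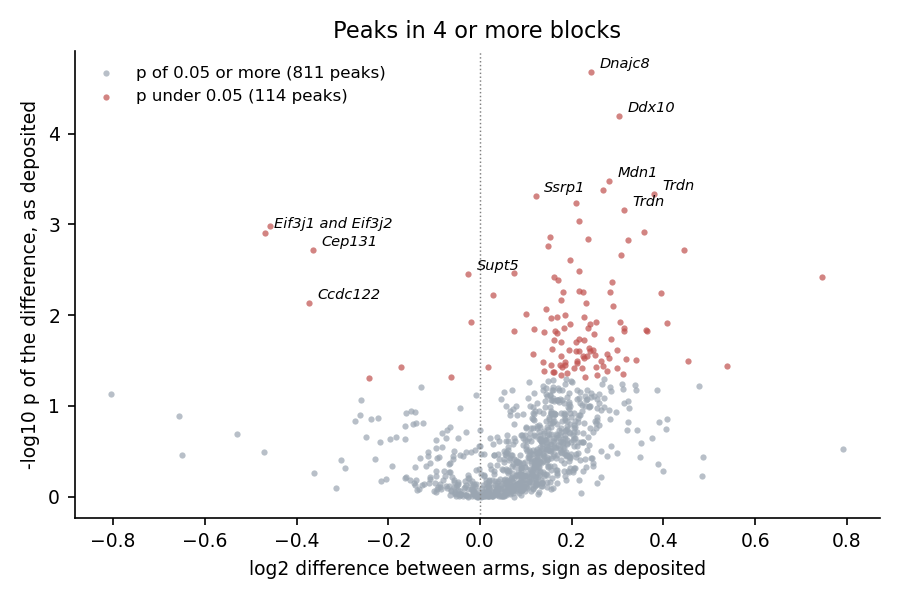
Each of the 925 members by its log2 difference between the arms (x axis, sign as deposited) and -log10 of the deposited p of that difference (y axis), with 114 of p under 0.05 in red. Red points lie mostly right of 0 (105 against 9), led by Dnajc8 and Ddx10, with Eif3j1, Eif3j2 and Cep131 on the left.

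The sign was uniform in the Smc genes and mixed in the collagens, a contrast that was not tested. All 11 Smc members were positive, from 0.10 to 0.26, and 6 of them were called, among them both Smc1a members with 0.21 and 0.18 by the authors' deposited table, chosen after their values were seen. Of the 14 members in the collagen list 6 were positive, the median was -0.032 and the range -0.25 to 0.75. With both Col22a1 members, which stood outside the list, 6 of 16 were positive, the median was -0.048 and the lowest value -0.47. Both called ones were positive, in Col9a1, a cartilage collagen, with 0.75 (log10 p = -2.42) and Col11a1 with 0.27 (log10 p = -1.44) in the authors' deposited table, and were named after their values were seen. In the m6A machinery, Wtap had 0.24 (log10 p = -1.86) and a Zc3h13 peak 0.23 (log10 p = -1.32) in the authors' deposited table. Both passed the p limit used here, with a log10 FDR of -0.136 and -0.000697. The Mettl14 peak stood at -0.046 (log10 p = -0.0099). Sarcomere members had a median of 0.076, 13 of 18 were positive and 2 were called, beside 81.9% positive and 12.3% called over all members. All 5 members in replication and repair genes were positive, with 2 called. The Smc2 and Smc4 peaks among them, which hold both calls, are also counted among the Smc members.

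RNA of the genes with a member was high. Their mean normalized count had a median of 5114 (quartiles 2516 and 10533), against 1769 for genes with other peaks and 472 for all genes with a count above 0. A deposited adjusted RNA p under 0.05 was found in 98 of 780 tested genes with a member (12.6%), beside 12.2% of all 15396 tested genes and 14.4% of genes with other peaks. Of the 98, 30 were positive and 68 negative, whereas over all genes the calls were 934 and 941. Among called members, 11 of 113 (9.73%) lay in genes with a called RNA difference, beside 117 of 924 (12.7%) of all members. In 7 of these 11 the m6A difference was positive and the RNA fold change negative, in 2 both were positive and in 2 both were negative. Most called members had a positive m6A difference in any case (105 of 114), and most called genes with a member a negative RNA fold change (68 of 98). The 7 included both Trdn members, whose gene had an RNA fold change of -1.71 ± 0.62 (SE, adjusted p = 0.048) in the authors' deposited table. Named after their values were seen, Smarca2 and Kdm5c show both patterns. Smarca2, a chromatin remodelling ATPase, had an m6A difference of 0.18 in its called peak and an RNA fold change of -0.31 ± 0.059 (adjusted p = 2.6e-05) in the authors' deposited table. Kdm5c, a histone demethylase, had 0.28 and 0.36 ± 0.080 (adjusted p = 3.5e-04) in the authors' deposited table. The sources used here do not say which libraries the RNA values were made from. If these were the input libraries, they enter both measures and the 2 differences are not independent.

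The tissue held bone, marrow and muscle RNA. Mean counts of osteoblast and osteocyte markers were 1093 to 99868, of osteoclast markers 3505 to 21688, and of neutrophil markers 11535 to 225725, while the liver markers were at most 1.68. Several marker lists had RNA fold changes of 1 sign. The called markers of each list are given beside 12.2% of all tested genes, and the lists are small. All 4 B cell markers had positive RNA fold changes, from 0.95 to 2.53, and all 4 were called, while all 4 osteoclast markers were negative, from -0.72 to -0.26, with 1 called. All 5 skeletal muscle markers had negative RNA fold changes, from -1.62 to -1.30, with 1 called, and took 1.48% of all mean counts. All 4 erythroid markers were positive, from 0.0026 to 0.86, with 1 called. Osteoblast and osteocyte markers ranged from -0.56 to 1.12, with 5 of 7 negative and 2 called. Neutrophil markers ranged from -0.34 to 0.038, with 3 of 5 negative and 0 called. The part of these shifts in the m6A values of members was not tested. Trdn, Ttn, Neb and Myh2 are muscle genes. Neb had an RNA fold change of -1.94 ± 0.61 (SE, adjusted p = 0.019) and Ttn -1.89 ± 0.70 (adjusted p = 0.053) in the authors' deposited table. In bulk tissue, fewer cells of a type and less RNA per cell cannot be told apart. Of the members, 12 shared block bases with a peak of another gene, 7 of them with a gene on the other strand. The deposited p against input was equal in 27.7% of 6236 pairs of neighbouring peaks of 1 gene, so it does not stand for each peak alone.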

How the data were processed

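RNA and m6A were measured in 16 libraries of mouse bone, and both deposited tables hold the authors' comparisons. HISAT2, StringTie, DESeq and, for these mouse samples, the rat build rn6 are listed in the submitters' processing notes with no role given; the peak caller is not given in the sources used here. Per the file headers, the authors deposited for each peak its block layout, a p-value for IP over input and its log10, the log10 FDR, the enrichment as a ratio, the log2 difference between arms, and log10 p and FDR of that difference (recorded as a score because 1 value lies beyond the usual log range). The deposited RNA table gives the mean normalized count over libraries (a signal), the log2 fold change and its SE, a Wald statistic score and p-values.

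Starts were moved from 0-based to 1-based. Blocks were parsed with pandas 2.3.3 and numpy 2.4.6 on Python 3.11.15, checked on simulated peaks, and RNA was joined by symbol. Gene ends came from RefSeq GRCm38.p6 and no exon annotation was used, so blocks were not matched to exons. Intervals are exact binomial (scipy 1.17.1); figures used matplotlib 3.10.9. Library depths are unknown here. A call is a deposited p under 0.05; no test was run here. Named peaks were those with most blocks, smallest difference p per sign, highest enrichment, widest span and shortest length, the 4 genes with most members (ties by symbol), and the 2 highest enrichments in each of 15 gene lists; others are said to be chosen after their values were seen. Members and lists were chosen with earlier results of these data known.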

Additional observations from a re-analysis of the deposited data

How the results depend on the processing

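The depth and spread of single libraries are not in the tables, which limits every statement to the authors' combined values. No paired analysis was possible because the tables hold no value per library, and for the same reason no library could be left out. Of 49 alternatives, 28 stayed within 1.5 times a count or within the exact 95% interval of the reported share or median. Only the median log2 difference could change sign, and it stayed positive in each of its alternatives. Some alternatives could hardly differ from the main result, so the 28 are not a measure of robustness. An RNA mean count of at least 50 left 924 members, and keeping all names gave 934 peaks. Leaving out genes with an RNA mean count of 0 kept all 781 genes. With a minimum of 3 blocks there were 2270 peaks, a median enrichment of 1.95, 9.60% called, a median log2 difference of 0.11 (0.107), a span of 4787 bases and a median RNA mean count of 3962. With a minimum of 5 blocks these were 436, 2.28, 16.3%, 0.13 (0.126), 9269 and 5922. Limited to summed lengths of 299 to 548 bases, 9.71% were called and the span was 6137 bases. At a difference p under 0.01, 4.22% of members were called beside 1.44% of all peaks, and at an FDR under 0.05, 0%. Chosen after seeing the data, the plus strand alone gave a median enrichment of 2.22 and a difference of 0.13 (0.132), and the minus strand alone 1.99, 0.073 and 9.31% called. Joining peaks of a gene at most 100 bases apart gave 942 peaks of at least 4 blocks, of which 29 held no member.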

Other observations

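The genes named here were chosen after their values were seen. Cenpe, a kinesin-like motor of the kinetochore, had 3 peaks and all 3 were members, with 4 to 9 blocks, enrichments of 2.47 to 3.24 and log2 differences of 0.17 to 0.19 in the authors' deposited table. Smc3, the cohesin ATPase, likewise had 3 members among 3 peaks, with enrichments of 2.63 to 2.98 and differences of 0.10 to 0.23. Cwf19l2, a factor tied to spliceosome release, was the same in number, with enrichments of 2.67 to 3.65 and an RNA fold change of -0.48 ± 0.089 (SE, adjusted p = 1.1e-05) in the authors' deposited table. The members with the largest absolute difference were Cep112 at -0.80 (log10 p = -1.13) and Rufy2 at 0.79 (log10 p = -0.53) in the authors' deposited table. Neither passed the p limit used here.

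Summed block lengths fell in steps. Of members, 646 (69.8%) had a length within 2 bases of a multiple of 50, against 6835 of 7191 peaks of 1 block. A length divisible by 3 was found in 45.7% of the inner blocks of members and in 40.9% of those of peaks of 3 blocks. Within 100 bases of each other lay 557 of 6236 pairs of neighbouring peaks of 1 gene (8.93%).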
